A study of Mus musculus with 202 samples.

Results

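A set of 38 genes of insulin, PI3-kinase, mTOR and AMPK signalling was followed in single mouse oocytes. They were taken by symbol from the count table, and all 38 of 38 listed symbols had a line of their own among 23995 gene symbols. The rule used no measured value, although the list was drawn up with results of these data known. Levels between genes are given as RPKM, the authors' reads scaled to gene length and library size, and levels between samples as CPM, counts scaled to 1000000 gene counts of an oocyte.

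The study followed C57Bl/6J mice over 3 generations (F1, F2 and F3) after treatment of the founding F0 females, and its title concerns prenatal androgen exposure and polycystic ovary syndrome. Every library was 1 oocyte at metaphase II (MII), the arrest in which the egg awaits fertilisation, made by Smart-seq2 from polyadenylated RNA. F0 females had a control diet (CD) or a high fat and high sugar diet (HFHS), with dihydrotestosterone (DHT), a potent androgen, or vehicle (Veh). Titles put 202 oocytes into 11 groups, and the 157 with at least 100000 gene counts and 4000 genes were used. In F1 these were 8 CD+DHT, 13 HFHS+DHT, 14 HFHS+Veh and 10 CD+Veh oocytes. In F2 they were 25 CD+DHT oocytes of 5 animals, 5 HFHS+DHT oocytes, 20 HFHS+Veh oocytes of 4 animals and 16 CD+Veh oocytes of 4 animals. In F3 they were 13 CD+DHT oocytes, 13 HFHS+Veh oocytes of 2 animals and 20 CD+Veh oocytes. The animal is the number before the point in a title, where there is one. No oocyte of animal 25 of F3 HFHS+Veh reached the minimums above, so that animal is absent from every F3 result.

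Titles and characteristics disagreed for 36 oocytes. All 15 titled F1 HFHS+Veh carried DHT in their characteristics, and 5 titled F2 HFHS+DHT carried vehicle. Another 8 titled F2 HFHS+Veh were listed as F3, and 8 titled F3 HFHS+Veh, all of animal 22 and 5 of them used here, were listed as F2. Titles were followed throughout. Gene counts of the oocytes used ran from 133654 to 16359078, and group medians of detected genes from 7127 in F3 HFHS+Veh to 10640.5 in F1 HFHS+Veh. The sum of 12 oocyte markers had a median of 14228 CPM, and that of 24 markers of the follicle's somatic cells (cumulus and granulosa) a median of 156 CPM. Among the 24, Cyp19a1 alone had a median of 86.7 CPM and a count in 154 oocytes, while most had a median of 0 CPM. Cumulus sums lay above 867 CPM, the 75th percentile plus 3 interquartile ranges, in 4 oocytes. In 1 of them, F3 CD+Veh oocyte 21, cumulus markers summed to 19374 CPM and oocyte markers to 165 CPM, so this library went against its label.

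Insulin and IGF1 bind receptor tyrosine kinases, whose adaptors activate PI3-kinase, and its lipid product brings AKT to the membrane, where PDK1 and mTOR complex 2 phosphorylate it. AKT restrains FOXO transcription factors, GSK3 and the TSC complex, and so lets RHEB switch on mTOR complex 1, which drives protein synthesis, while AMPK senses low energy and opposes it. In mouse oocytes this pathway is known for controlling the activation of primordial follicles and the store of protein synthesis machinery. MII oocytes transcribe almost nothing, so a transcript level there reflects what was stored and what was degraded during maturation. As the libraries were made from polyadenylated RNA, a measured level also depends on which transcripts carried a poly(A) tail.

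Per unit of length, RHEB, the GTPase that activates mTOR complex 1, had the most abundant transcript of the 38, with a mean of 233 RPKM and an interquartile range over oocytes of 195 to 269.7 RPKM. Next came Prkab1, the beta-1 regulatory subunit of AMPK (157 RPKM), Foxo1, a forkhead factor that AKT excludes from the nucleus (93.7 RPKM), and Rictor, the defining subunit of mTOR complex 2 (75.8 RPKM). The Rictor mean spans unlike generations, with medians of 28.6 RPKM in F1, 32.6 RPKM in F2 and 194 RPKM in F3, where Foxo1 had 89.5 RPKM. All 4 had a count in every one of 157 oocytes. The members' summed level ran from 1861 to 6075 CPM, with a median of 2839 CPM. The highest sum was that of F3 CD+Veh oocyte 21, the library that went against its label, where Sgk1 alone had 3996 CPM. Their RefSeq promoters (GRCm38.p6, 250 bases before to 50 after the start) are shown for Rheb and Rictor, the most abundant transcript and the one with the highest ratio of F3 to F1 controls among measured members, and for Akt1, which was low in F3. Capitals mark an E-box (CACGTG) in Rheb on chr5:24842312-24842611, minus strand, a FOXO core (TGTTTAC) in Akt1 on chr12:112674835-112675134, minus strand, and a CCAAT box in Rictor on chr15:6708131-6708430, plus strand. Akt1 has 2 promoter entries, and the one not shown (chr12:112674227-112674526) had no FOXO core.
Rheb: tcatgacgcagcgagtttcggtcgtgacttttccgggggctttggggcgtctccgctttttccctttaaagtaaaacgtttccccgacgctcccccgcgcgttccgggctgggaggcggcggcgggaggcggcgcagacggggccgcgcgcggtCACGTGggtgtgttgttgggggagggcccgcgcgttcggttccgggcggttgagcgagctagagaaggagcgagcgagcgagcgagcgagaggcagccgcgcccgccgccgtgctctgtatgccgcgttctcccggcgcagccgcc
Akt1: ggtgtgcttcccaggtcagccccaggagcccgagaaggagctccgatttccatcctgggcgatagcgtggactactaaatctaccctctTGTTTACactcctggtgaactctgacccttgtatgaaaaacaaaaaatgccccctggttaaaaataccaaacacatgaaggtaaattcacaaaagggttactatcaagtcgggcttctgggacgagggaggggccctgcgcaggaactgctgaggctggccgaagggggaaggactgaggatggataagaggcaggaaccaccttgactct
Rictor: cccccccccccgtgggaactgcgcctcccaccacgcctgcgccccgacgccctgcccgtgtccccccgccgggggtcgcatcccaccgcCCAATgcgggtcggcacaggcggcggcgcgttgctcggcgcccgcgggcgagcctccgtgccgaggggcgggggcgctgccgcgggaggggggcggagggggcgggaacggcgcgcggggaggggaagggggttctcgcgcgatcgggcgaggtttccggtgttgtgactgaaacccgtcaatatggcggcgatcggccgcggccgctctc

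Of the 38 members, 33 had an entry in that promoter table. On either strand, the E-box was present in 7.15% of all 32851 promoters, in 8.09% of 27025 genes with any of their promoters counted, and by that count in 4 members (Irs1, Irs2, Rheb and Sgk1). The FOXO core or its complement GTAAACA was present in 3.65% of promoters, 4.05% of genes, and in Akt1, Stk11 and Sesn1. CCAAT or ATTGG was present in 37.4% of promoters, 41.1% of genes, and in 15 members. A match describes letters in the window and shows no binding. The cyclic AMP element TGACGTCA (1.79% of promoters, 2.03% of genes) and the NRF1 motif (0.971% of promoters, 1.07% of genes) matched 0 members.

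Receptors and adaptors were scarce. Insr, the insulin receptor, averaged 0.598 ± 1.15 RPKM and Igf1r, the IGF1 receptor, 0.593 ± 0.785 RPKM (SD, n = 157 oocytes), and neither was the higher of the pair throughout, with Insr higher in 67 oocytes and Igf1r in 72. The adaptors Irs1 and Irs2, which link these receptors to PI3-kinase, were near the limit of detection, with a count in 24 and 7 of 157 oocytes. In 130 oocytes both adaptors were at 0, and single oocytes with no count do not show absence at this depth.

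Within each downstream family 1 paralogue carried most of the transcript. Pik3r1, the main regulatory subunit of PI3-kinase, averaged 22.9 ± 13.6 RPKM and Pik3r2 0.0874 ± 0.439 RPKM, and Pik3r1 was the higher in 157 of 157 oocytes. The catalytic Pik3ca (9.52 ± 4.48 RPKM) exceeded Pik3cb (3.87 ± 3.16 RPKM) in 141. Pdpk1, which encodes PDK1, had 26.76 RPKM. Akt1 (21.8 ± 17.54 RPKM) exceeded Akt2 (1.55 ± 1.76 RPKM) in 152 oocytes. Among AKT targets, Foxo1 (93.7 ± 30.6 RPKM) exceeded Foxo3 (1.87 ± 2.42 RPKM) in 157 oocytes, Foxo4 averaged 0.0257 RPKM, and Gsk3b (17.42 ± 14.9 RPKM) exceeded Gsk3a (4.82 ± 4.70 RPKM) in 137. These pairs kept the same order of mean RPKM in all 11 groups.

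At the mTOR level, Rictor exceeded Rptor, the substrate-recruiting subunit of mTOR complex 1, in 157 of 157 oocytes (75.8 ± 80.8 against 0.886 ± 1.12 RPKM). The kinase Mtor had 4.46 RPKM and Deptor, an inhibitor that binds it, 26.44 RPKM, whereas Mlst8, a subunit of both complexes, had a count in 40 of 157 oocytes and a mean of 0.282 RPKM. Rps6kb1, the S6 kinase, exceeded its relative Rps6kb2 in 156 oocytes (28.5 ± 15.7 against 1.60 ± 17.17 RPKM). The exception was F3 CD+Veh oocyte 21, whose 215 RPKM (374 CPM) of Rps6kb2 made up most of that mean; the median was 0 RPKM and 24 of 157 oocytes had a count. The translation repressors Eif4ebp1 and Eif4ebp2 were low, at 4.48 and 0.878 RPKM. Of the brakes upstream, Tsc1 (2.61 ± 2.70 RPKM) exceeded Tsc2 (0.610 ± 1.05 RPKM) in 129 oocytes. Ddit4, a stress-induced inhibitor that acts through the TSC complex, had 13.498 RPKM, Gatsl3, the arginine sensor now named Castor1, 8.92 RPKM, and Sesn1, the leucine sensor Sestrin1, 0.556 RPKM.

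In the AMPK branch Prkab1 exceeded Prkab2 in 157 of 157 oocytes (157 ± 67.7 against 1.86 ± 1.97 RPKM). The catalytic subunits were far lower, Prkaa1 at 2.53 ± 3.05 RPKM and Prkaa2 at 0.800 ± 1.44 RPKM, with Prkaa1 the higher in 114 oocytes. Prkag1, a nucleotide-binding subunit, had 2.95 RPKM, and Stk11, which encodes the AMPK-activating kinase LKB1, 7.68 RPKM. Over 157 oocytes the Spearman correlation of CPM with the number of detected genes was 0.54 for Deptor, 0.53 for Prkab1, 0.50 for Akt1, 0.03 for Gsk3b, -0.13 for Rheb, -0.19 for Rps6kb1 and -0.24 for Rictor, a description over libraries of unequal depth. Strand use in the authors' counting is not given in the sources used here, so members that overlap a gene on the opposite strand are uncertain, among them Tsc2 (Pkd1), Mtor (Angptl7), Stk11 (Cbarp), Mlst8 (Bricd5), Rps6kb1 (Rnft1) and Rps6kb2 (Coro1b). The abundant Prkab1 (Gm14508), Foxo1 (Gm20402) and Deptor (Gm9920) also overlap such a gene. In GENCODE vM21 (GRCm38) no such gene overlaps Rictor, Rheb, Akt1, Ddit4 or Gsk3b.

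**Figure D1:**
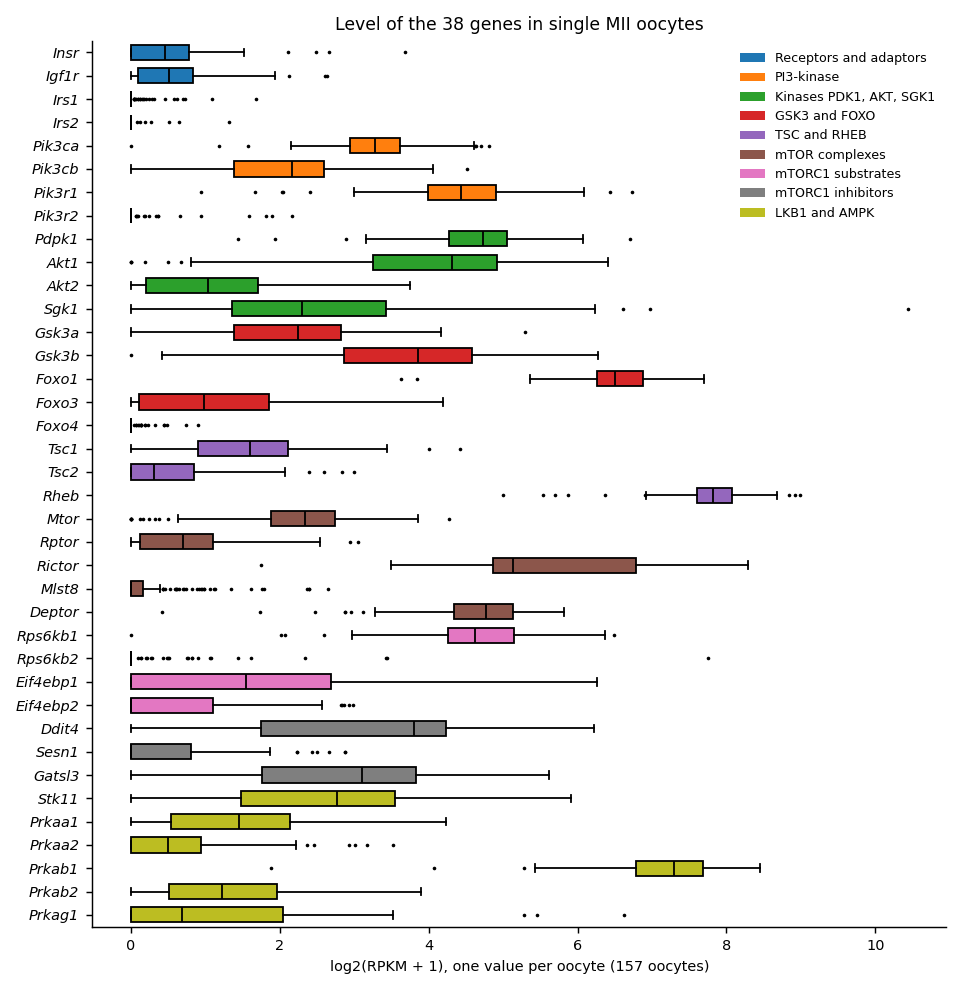
Boxplots of the level of each of the 38 genes over 157 oocytes, as log2(RPKM + 1), ordered and coloured by role; boxes span the quartiles, whiskers 1.5 interquartile ranges, points lie beyond. Rheb, Prkab1, Foxo1 and Rictor lie to the right, Irs1, Irs2, Pik3r2, Foxo4 and Rps6kb2 at 0 in most oocytes, and the box of Rictor is wide.

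Rictor levels set F3 apart. In F1 oocytes Rictor ran from 95.9 CPM through a median of 266 CPM to 347 CPM (n = 45). In F2 it ran from 140.2 CPM through 301 CPM to 404 CPM (n = 66). In F3 it ran from 25.82 CPM through 1801 CPM to 2896 CPM (n = 46). The lowest F3 value belonged to the library that went against its label, and without the 4 oocytes rich in cumulus markers every F3 oocyte (671 CPM or more, n = 44) lay above every F1 and F2 oocyte (n = 109). The same held for 4 of 7221 genes with a mean of at least 5 CPM, or 0.0554%, and Rictor was the 1 member among them.

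The level was high in all 3 F3 groups. Median Rictor was 1793 CPM in CD+DHT oocytes and 1809 CPM in HFHS+Veh oocytes, against 1762 CPM in CD+Veh oocytes, and the medians of the F1 and F2 groups lay between 235 CPM in F1 HFHS+DHT and 336 CPM in F2 HFHS+DHT. Between controls, pooled Rictor was 1959 CPM [1948 to 1970.05] in F3 CD+Veh and 269 CPM [263 to 276] in F1 CD+Veh, a log2 ratio of 2.86 [2.82 to 2.90], with exact 95% intervals that cover counting error only. Of 7198 genes measured in that comparison, 102 (1.42%) had a ratio at least as high. In oocytes whose characteristics contradicted the generation in their title, Rictor had a median of 307 CPM (208 to 388 CPM, n = 8) in those titled F2 HFHS+Veh and 1809 CPM (1197 to 2736 CPM, n = 5) in those titled F3 HFHS+Veh. The other oocytes with those titles had 214 to 382 CPM (n = 12) for F2 and 754 to 2649 CPM (n = 8) for F3, so the ranges overlapped within each title.

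Transcripts of 3 other members, chosen after their values were seen, were low in F3. Ddit4 had medians of 23.3, 29.0 and 1.44 CPM in F1, F2 and F3, Akt1 54.1, 70.7 and 8.65 CPM, and Gsk3b, a kinase that AKT inhibits, 187, 131 and 28.2 CPM. Their ranges overlapped between generations. For Ddit4 they were 7.81 to 64.6 CPM in F1, 0 to 123 CPM in F2 and 0 to 22.596 CPM in F3, and for Akt1 F3 CD+Veh oocyte 21 held the highest value of the series (232 CPM). No member lay below F1 and F2 in every F3 oocyte, against 20 of 7221 genes (0.277%).

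Set against F1 CD+Veh, F3 CD+Veh oocytes had 1.83 against 21.2 CPM of Ddit4 (log2 ratio -3.53 [-3.85 to -3.23]), 33.3 against 158 CPM of Gsk3b (-2.25 [-2.33 to -2.17]) and 17.7 against 66.3 CPM of Akt1 (-1.91 [-2.02 to -1.79]). Of 7198 genes measured, 1.13% had a ratio at least as low as Ddit4, 5.90% as Gsk3b and 9.04% as Akt1. Sgk1, a kinase related to AKT that mTOR complex 2 activates, stood at 59.2 against 11.5 CPM (2.36), with 1.74 without F3 CD+Veh oocyte 21, 1.34 without the oocytes rich in cumulus markers, and 4.04 as a mean but 0.73 as a median of oocyte CPM. Igf1r stood at 3.62 against 7.52 CPM (-1.06), and at -0.03 as a mean of oocyte CPM, -2.16 without F3 CD+Veh oocyte 24 and -0.52 without F1 CD+Veh oocyte 11. These and Rictor made 6 of 24 measured members at least 2-fold apart, or 25%, where all genes gave 37.6%, so the share of members was not above that of all genes. Rheb (0.14), Foxo1 (0.29), Prkab1 (0.06) and Deptor (-0.11) had log2 ratios near 0.

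Fewer members were 2-fold apart between F2 and F1 controls. F2 CD+Veh oocytes were at least 2-fold above F1 CD+Veh oocytes for 2 of 27 measured members, where all genes gave 6.83%. These were Prkab2 (11.6 against 3.397 CPM, log2 ratio 1.77 [1.42 to 2.13]) and Tsc1 (33.9 against 15.1 CPM, 1.17 [0.999 to 1.34]). Without F2 CD+Veh oocyte 3.1 Tsc1 was at 0.85, and as medians of oocyte CPM neither was past 2-fold (0.92 and 0.30). The 2 comparisons share F1 CD+Veh, and no animal was named for F1 or for F3 controls, so each group was 1 sample with no test. F3 CD+Veh oocytes had a median of 8225 genes, 2616474 counts and a pooled cumulus sum of 435 CPM, against 9642.5 genes, 935112 counts and 143 CPM in F1 CD+Veh, and the part of these in the ratios was not tested. Generation cannot be told apart from any difference in when its libraries were made.

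**Figure D2:**
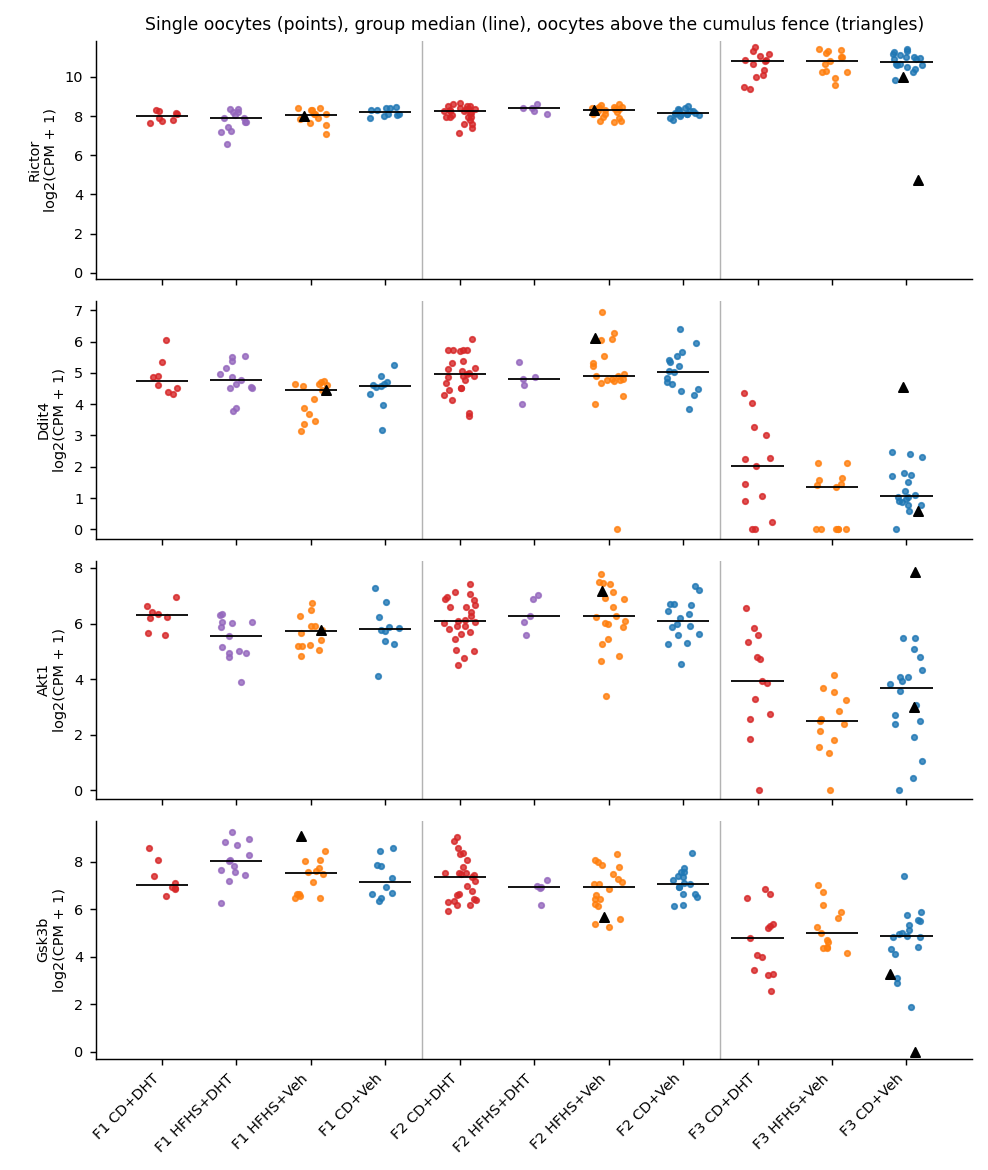
Rictor, Ddit4, Akt1 and Gsk3b in every oocyte used, as log2(CPM + 1), by group within F1, F2 and F3; lines are group medians and triangles the 4 oocytes above 867 CPM of cumulus markers. Rictor lies higher in F3 in all groups apart from 1 triangle, and the other 3 genes lie lower with overlap.

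In F2, where animals were the replicates, no member passed the test between groups. Counts were summed per animal (9939962 to 36059954 counts) and tested with edgeR's quasi-likelihood test over 11962 genes, of which 0 (0%) passed a Benjamini-Hochberg adjusted p of 0.05 in each of the 3 contrasts. Of the 38 members 33 passed the filter on low counts, 0 of them were called, and Irs1, Irs2, Pik3r2, Rps6kb2 and Foxo4 did not pass it. At an unadjusted p under 0.05 there were 220 genes and 0 members in CD+DHT against CD+Veh, 118 genes and 1 member in HFHS+Veh against CD+Veh, and 125 genes and 1 member in CD+DHT against HFHS+Veh. DESeq2 called 2, 2 and 1 genes in these contrasts, and 0 members. The contrasts share animals, and the titles name animals only by number, so p-values measure the spread between those sums.

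In F2 CD+DHT against CD+Veh, 16 members were higher and 17 lower, with a median log2 fold change of -0.02 over members and -0.01 over all genes. The smallest p belonged to Tsc1, the stabilising subunit of the TSC complex that inactivates RHEB. It had 13.37, 15.2, 17.01, 18.5 and 22.12 CPM in the 5 CD+DHT animals, against 14.18, 15.1, 31.4 and 59.1 CPM in the 4 CD+Veh animals. The groups overlapped, since 2 control animals lay among the CD+DHT animals. The log2 fold change was -0.54 ± 0.29 (SE; edgeR p = 0.0851, adjusted p = 1.0), and -0.16 without CD+Veh animal 3.

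The next in that contrast were, lower in CD+DHT, Stk11 (10.49 ± 4.32 CPM in CD+DHT against 17.02 ± 7.01 CPM in CD+Veh, SD over animals; log2 fold change -0.54 ± 0.34 SE) and Foxo3, a forkhead factor that keeps primordial follicles dormant in mice (4.81 ± 2.26 against 8.44 ± 5.29 CPM; -0.60 ± 0.49). Foxo3 was at -0.35 without CD+Veh animal 3 and at -0.92 without CD+Veh animal 13, and Stk11 at -0.34 without CD+Veh animal 2. Higher in CD+DHT were Pik3cb (17.01 ± 3.51 against 14.8 ± 3.42 CPM; 0.37 ± 0.27), Sesn1 (1.80 ± 1.01 against 0.905 ± 0.754 CPM; 1.07 ± 0.79) and Mlst8 (1.45 ± 0.801 against 0.459 ± 0.580 CPM; 1.99 ± 1.53). Sesn1 was at 1.99 without CD+Veh animal 14 and Mlst8 at 3.13 without CD+Veh animal 2. Every one of these had an edgeR adjusted p of 1.0. Sesn1 and Mlst8 stood under 5 CPM, and 2 of 4 CD+Veh animals had no Mlst8 count.

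In F2 HFHS+Veh against CD+Veh, 20 members were higher and 13 lower (median 0.02 over members and 0.02 over all genes). Pik3cb, a catalytic subunit of PI3-kinase, had 15.1, 19.95, 20.6 and 28.8 CPM in the HFHS+Veh animals, against 12.02, 13.34, 14.08 and 19.8 CPM in the CD+Veh animals. The highest control lay among the HFHS+Veh animals. Its log2 fold change was 0.63 ± 0.28 (SE; edgeR p = 0.0411, adjusted p = 1.0), and 0.32 without HFHS+Veh animal 10, whose oocytes all carried F3 in their characteristics. Next were Sesn1 (2.06 ± 1.12 CPM in HFHS+Veh against 0.905 ± 0.754 CPM in CD+Veh; 1.16 ± 0.83, and 2.08 without CD+Veh animal 14) and Gsk3a (13.37 ± 7.06 against 10.24 ± 6.69 CPM; 0.52 ± 0.44, and 0.22 without HFHS+Veh animal 5 and 0.83 without CD+Veh animal 3). Lower in HFHS+Veh were the AMPK catalytic subunit Prkaa1 (7.56 ± 4.102 against 11.4 ± 4.79 CPM; -0.65 ± 0.53), Tsc2, the catalytic subunit of the TSC complex (2.26 ± 1.07 against 4.32 ± 1.83 CPM; -0.90 ± 0.79), and Mtor (37.9 ± 7.72 against 46.9 ± 12.4 CPM; -0.24 ± 0.25). Prkaa1 was at -0.23 without CD+Veh animal 13, and Mtor at -0.04 without CD+Veh animal 14 and -0.36 without CD+Veh animal 13.

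In F2 CD+DHT against HFHS+Veh, 14 members were higher and 19 lower (median -0.07 over members and -0.02 over all genes). Stk11 had 6.399, 7.35, 9.51, 11.98 and 17.19 CPM in the CD+DHT animals, against 8.25, 15.7, 24 and 31.7 CPM in the HFHS+Veh animals. The lowest HFHS+Veh animal lay within the CD+DHT range. The log2 fold change was -0.82 ± 0.34 (SE; edgeR p = 0.0288, adjusted p = 1.0), and -0.53 without HFHS+Veh animal 4. For Tsc1 the 2 groups did not overlap, with at most 22.12 CPM in CD+DHT and at least 22.77 CPM in HFHS+Veh (-0.51 ± 0.29, adjusted p = 1.0 by edgeR). It was 1 of 33 members in which every CD+DHT animal lay below, as for 0.435% of genes, and in 0 members did every CD+DHT animal lie above (0.226% of genes). Against CD+Veh, 0 members lay above or below in every animal, for CD+DHT (0.184% and 0.752% of genes) and for HFHS+Veh (0.301% and 0.853%). Foxo1 was at -0.21 ± 0.20, and -0.12 without HFHS+Veh animal 5 and -0.32 without HFHS+Veh animal 10. Higher in CD+DHT were Rheb (401 ± 73.1 against 348 ± 35.5 CPM; 0.30 ± 0.26, and 0.10 without CD+DHT animal 9), Mlst8 (1.39 ± 1.48, and 2.202 without HFHS+Veh animal 5) and Eif4ebp1 (0.82 ± 0.92). Eif4ebp1 was carried by CD+DHT animal 7 (14.7 CPM) and turned to -0.18 without it.

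**Figure D3:**
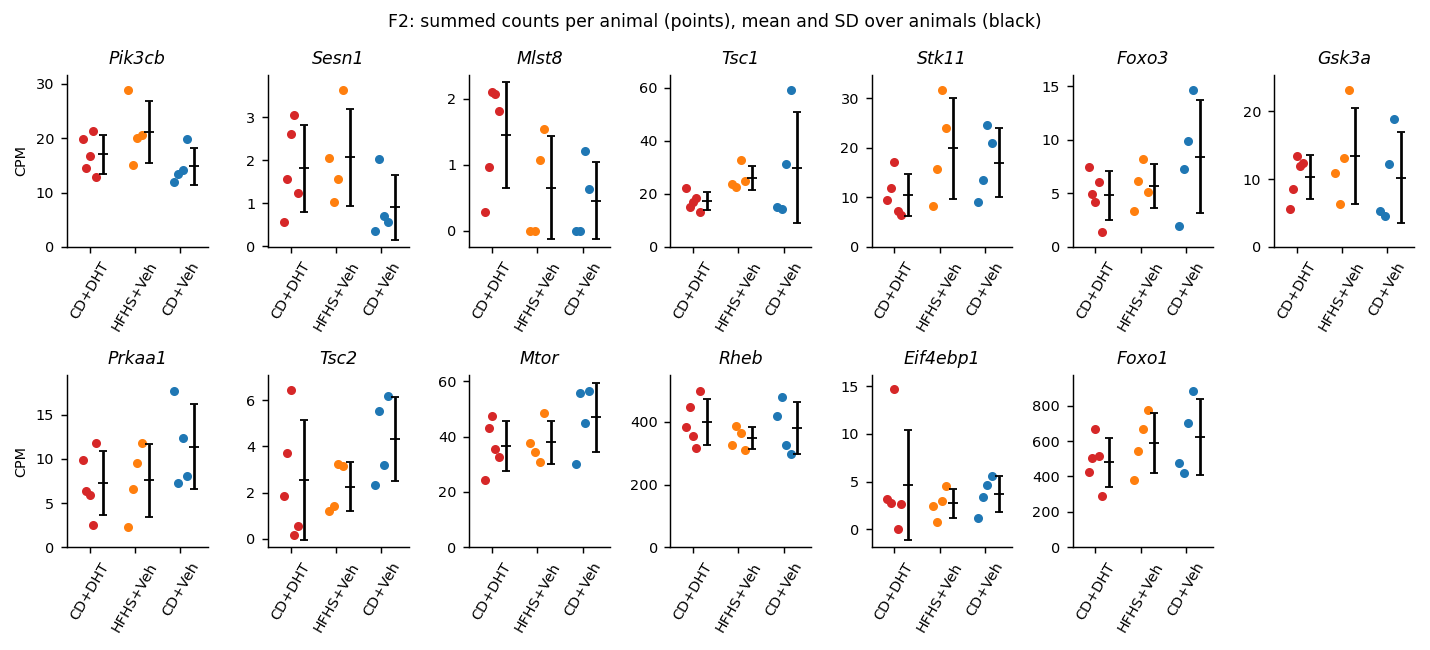
CPM of summed counts per F2 animal for the 13 members named in the F2 contrasts; points are animals (5 CD+DHT, 4 HFHS+Veh, 4 CD+Veh) and black marks the mean and SD. Groups overlap in each pair except Tsc1 of CD+DHT and HFHS+Veh.

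Members differed in how evenly animals held them. The SD of log2(CPM + 1) between F2 animals of a group was compared over members with a mean of at least 5 CPM. It was smallest for Rictor (0.21), Rheb (0.25) and Pik3ca (0.28), and largest for Sgk1 (1.49), Akt2 (0.90) and Igf1r (0.87). This order was not matched for level, and Rictor, Rheb and Pik3ca had higher mean CPM than Sgk1, Akt2 and Igf1r. Ranked among genes of like level, Sgk1 stayed highest, but Pik3cb was lowest, and Akt1 and Gsk3b stood above Akt2 and Igf1r. The median SD was 0.55 over these 26 members and 0.46 over 7283 genes. Between oocytes of 1 animal the median was 0.86 over members and 0.98 over genes.

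In F1, where groups were 1 sample each and no test was made, few members were 2-fold apart. In CD+DHT against CD+Veh it was 1 of 24 measured members (4.17%, against 3.94% of all genes), Prkab2, the beta-2 subunit of AMPK. It had 0, 7.12 and 16.2 CPM as lowest, median and highest of the 8 CD+DHT oocytes, against 0, 4.63 and 6.55 CPM over the 10 CD+Veh oocytes. The ranges overlapped, and pooled levels were 8.48 CPM [6.57 to 10.8] against 3.397 CPM [2.67 to 4.26] (log2 ratio 1.32 [0.82 to 1.81]), or 0.84 as means and 0.62 as medians of oocyte CPM. The lowest ratio was that of Stk11 (7.09 against 13.22 CPM, log2 ratio -0.90), which was -1.26 without CD+Veh oocyte 11 and -0.77 without CD+Veh oocyte 8. As a mean of oocyte CPM it was -2.03. CD+Veh oocytes 7 and 8 had 57.8 and 96.4 CPM of Stk11, and the other CD+Veh oocytes at most 24.6 CPM. Stk11 was followed by Gsk3b (-0.26, or -0.47 without CD+Veh oocyte 6 and -0.10 without oocyte 1). Pik3ca was at 0.47, or 0.71 without CD+DHT oocyte 6 and 0.29 without oocyte 2. Median log2 ratios were 0.07 over members and -0.01 over genes.

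In F1 HFHS+Veh against CD+Veh, 2 of 25 measured members were at least 2-fold higher (8.0%, against 3.35% of genes in either direction). Sgk1 had 1.86, 26.58 and 150.5 CPM as lowest, median and highest of 14 HFHS+Veh oocytes, against 3.73, 12.8 and 31.6 CPM over 10 CD+Veh oocytes. The highest 6 HFHS+Veh oocytes lay above every control oocyte and the others did not, and pooled levels were 40.5 CPM [38.6 to 42.4] against 11.5 CPM [10.13 to 13.01] (log2 ratio 1.82 [1.62 to 2.01]). Prkab2 stood at 7.01 CPM [6.24 to 7.84] against 3.397 CPM [2.67 to 4.26] (1.04), with 0.60 as means of oocyte CPM and 0.71 without HFHS+Veh oocyte 12. Its control values are those of the CD+DHT comparison, so the 2 results are not independent. Lowest were Prkaa2 (-0.38, and -0.61 without HFHS+Veh oocyte 11) and Pik3cb (-0.24, and -0.04 without oocyte 2). The characteristics of these HFHS+Veh oocytes name DHT, so whether the group received it cannot be told apart here.

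Sgk1 moved with the summed cumulus markers. Cyp19a1 had the highest median of these markers (86.7 CPM), and how far the sum reflects RNA of cumulus cells was not tested. Its Spearman correlation with the sum of 24 cumulus and granulosa markers was 0.61 over 157 oocytes, as a description across libraries of unequal depth, and the part of these markers in the Sgk1 results was not tested. The cumulus sum, from pooled counts, was 333 CPM in F1 HFHS+Veh, against 143 CPM in F1 CD+Veh. The HFHS+Veh oocyte with the most Sgk1, oocyte 1 (150.5 CPM), was also the 1 F1 oocyte above 867 CPM of cumulus markers (931 CPM), and without it the log2 ratio was 1.37. In F3 CD+Veh oocyte 21 Sgk1 reached 3996 CPM. In F1 HFHS+DHT against HFHS+Veh, Sgk1 was the 1 of 26 measured members at least 2-fold apart (3.85%, against 3.74% of genes), at 15.8 CPM [14.01 to 17.8] against 40.5 CPM [38.6 to 42.4] (-1.36 [-1.54 to -1.17]), and -0.91 without HFHS+Veh oocyte 1.

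**Figure D4:**
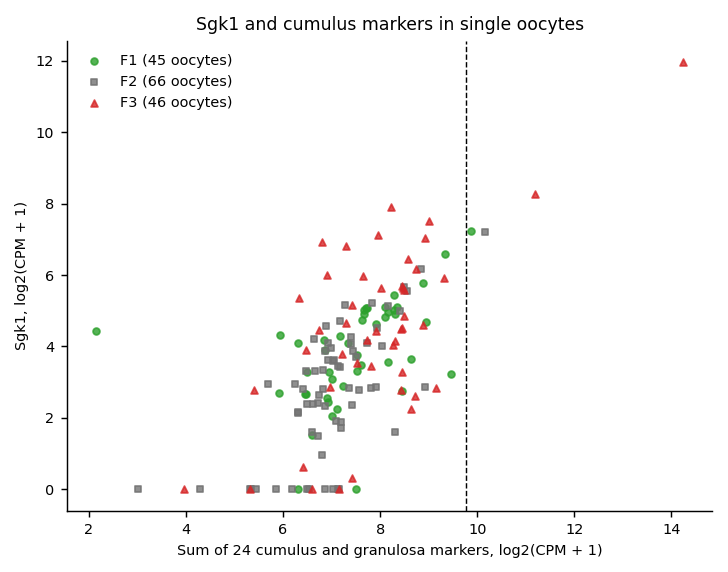
Sgk1 against the sum of 24 cumulus and granulosa markers in 157 oocytes, both as log2(CPM + 1), by generation; the dashed line stands at 867 CPM of marker sum. The 4 oocytes right of the line have 146 CPM or more of Sgk1, and the point at the upper right is F3 CD+Veh oocyte 21 (3996 CPM of Sgk1, 19374 CPM of markers).

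The other named members of F1 HFHS+DHT against HFHS+Veh were Igf1r (4.34 against 6.68 CPM; -0.62, between -1.06 without HFHS+DHT oocyte 12 and -0.32 without HFHS+Veh oocyte 13), Insr (6.51 against 4.41 CPM; 0.56, between 0.30 without HFHS+DHT oocyte 12 and 0.90 without HFHS+Veh oocyte 6, and 0.03 as a mean of oocyte CPM) and Ddit4 (30.3 against 19.01 CPM; 0.67). In F1 HFHS+DHT against CD+DHT, 0 of 24 measured members were 2-fold apart, against 4.45% of genes. Igf1r (4.34 against 8.48 CPM; -0.97) ran from -1.67 without CD+DHT oocyte 6 to -0.50 without CD+DHT oocyte 11, and Mtor stood at 28.3 against 47.97 CPM (-0.76), or -0.31 as a mean of oocyte CPM. Gsk3b stood at 220.2 against 132 CPM (0.74), and at 1.01 as a median of oocyte CPM. Sgk1 stood at 0.38, and at -0.13 without CD+DHT oocyte 6.

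In F3 the arginine sensor Gatsl3 was lower in oocytes of both treated lineages than in controls. It had 0, 3.62 and 20.8 CPM as lowest, median and highest of 13 CD+DHT oocytes, and 0, 4.24 and 14.18 CPM of 13 HFHS+Veh oocytes, against 0, 18.4 and 74.6 CPM of 20 CD+Veh oocytes. The ranges overlapped at the low end, with 2 control oocytes at 0. Pooled levels were 5.66 CPM [5.01 to 6.37] in CD+DHT and 3.26 CPM [2.11 to 4.82] in HFHS+Veh, against 25.51 CPM [24.24 to 26.83] in CD+Veh. The log2 ratios were -2.17 [-2.36 to -1.98] and -2.97 [-3.60 to -2.40], and stayed between -2.38 and -2.03 and between -3.24 and -2.72 when any 1 oocyte was left out. With the oocytes of animal 22 left out, which left 1 animal, HFHS+Veh stood at -1.95. Both comparisons share the CD+Veh oocytes, whose Gatsl3 median was above those of the F1 and F2 groups (8.07 to 16.8 CPM). Of 24 oocytes per group, 11 CD+DHT, 11 HFHS+Veh and 4 CD+Veh oocytes had been left out. Median counts and genes were 1692268 and 8082 in CD+DHT, 585662 and 7127 in HFHS+Veh, and 2616474 and 8225 in CD+Veh. Over all oocytes used, Gatsl3 CPM had a Spearman correlation of 0.46 with detected genes, and the part of depth in these ratios was not tested.

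Other members past 2-fold in F3 CD+DHT rested on few oocytes. In CD+DHT against CD+Veh 5 of 23 measured members were past it. Of the 23, 2 were higher, where 7.53% of all genes were, and 3 were lower, where 6.78% of all genes were. Insr had 11.03 CPM [10.11 to 12.01] against 5.33 CPM [4.76 to 5.95] (log2 ratio 1.05) and Rptor 11.3 CPM [10.41 to 12.3] against 5.35 CPM [4.78 to 5.97] (1.08). Without CD+DHT oocyte 15 Insr turned to -0.85 and Rptor to 0.27, and without CD+Veh oocyte 15 they were at 2.08 and 2.22. As means of oocyte CPM they were at 0.35 and 0.00. Tsc1 stood at 11.3 against 24.4 CPM (-1.11) and Stk11 at 3.36 against 6.80 CPM (-1.02), and both turned positive as means of oocyte CPM (0.37 and 1.16). Without CD+Veh oocyte 23 Tsc1 was at -0.65 and without CD+DHT oocyte 22 at -1.72, and without CD+Veh oocyte 3 Stk11 was at -0.56. Direction was therefore not settled for Insr, Tsc1 and Stk11, nor for Rptor, which stood at 0.00 as a mean of oocyte CPM. The largest CD+DHT library held 34.2% of the pooled counts.

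In F3 HFHS+Veh against CD+Veh 4 of 22 measured members were past 2-fold, Gatsl3 among them. Of the 22, 1 was higher, where 4.27% of all genes were, and 3 were lower, where 10.6% of all genes were. Akt1, the main AKT kinase transcript, had 0, 4.63 and 16.98 CPM as lowest, median and highest of 13 HFHS+Veh oocytes, against 0, 12.1 and 232 CPM of 20 CD+Veh oocytes. The ranges overlapped, with 6 control oocytes above every HFHS+Veh oocyte, and pooled levels were 5.09 CPM [3.62 to 6.96] against 17.7 CPM [16.6 to 18.8] (log2 ratio -1.80 [-2.30 to -1.34]), between -2.04 and -1.53 when any 1 oocyte was left out. Mtor had 21.01 CPM [17.9 to 24.5] against 48.5 CPM [46.7 to 50.3] (-1.21), and at -1.73 without HFHS+Veh oocyte 7 of animal 26, -0.99 without oocyte 7 of animal 22 and -0.60 without the 5 oocytes listed as F2. Insr stood at 17.9 against 5.33 CPM (1.75), at 0.82 without HFHS+Veh oocyte 2 of animal 22, which held 110.4 CPM, at 2.77 without CD+Veh oocyte 15 and at -0.51 without the 5 oocytes listed as F2. Rptor stood at 9.79 against 5.35 CPM (0.87), and at 2.01 without CD+Veh oocyte 15. Median log2 ratios over members and genes were -0.06 and -0.07, and for CD+DHT -0.02 and 0.03.

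**Figure D5:**
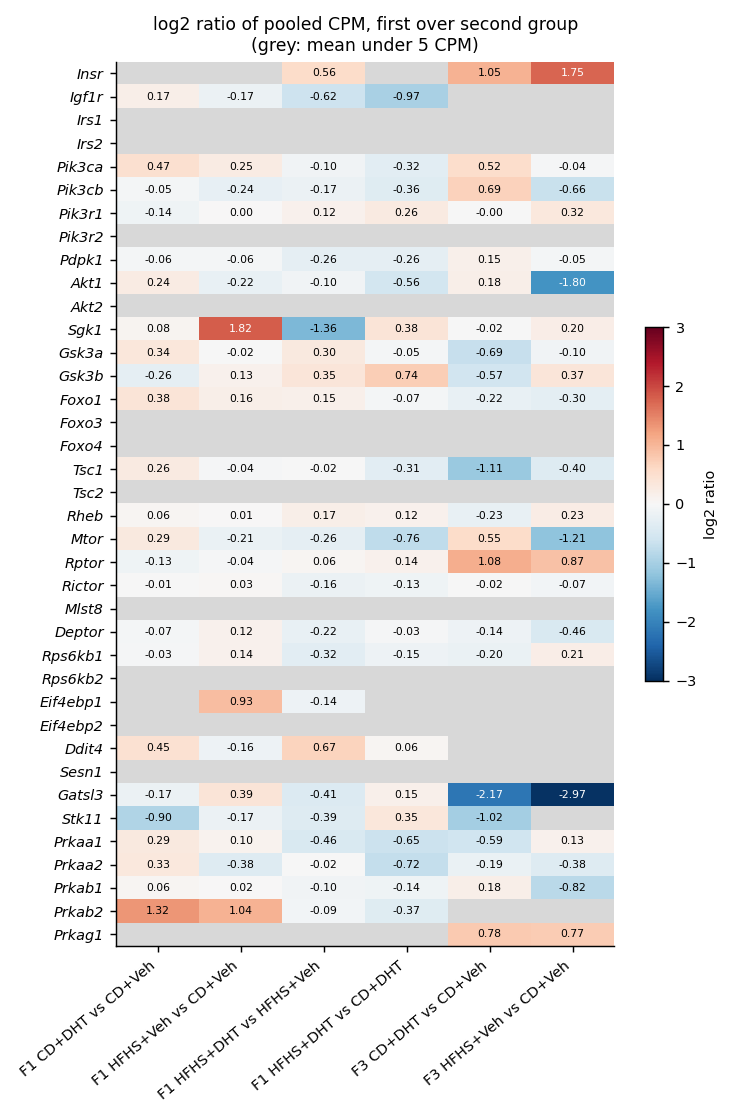
Log2 ratio of pooled CPM, first over second group, for each of the 38 genes in the 4 F1 and 2 F3 comparisons; red is higher in the first group, blue lower, and grey a mean under 5 CPM. Values past 1 in either direction are Prkab2 and Sgk1 in F1, and Insr, Rptor, Akt1, Tsc1, Mtor, Gatsl3 and Stk11 in F3.

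Beyond the 38, a list of 65 further genes of the pathway (receptor adaptors, RAG and LAMTOR proteins, AMPK partners and translation factors) was read the same way. In F2, 57 of 65 were tested, 0 were called in any contrast by edgeR, and 0 had an unadjusted p under 0.05. Those with the smallest p were Grb2, a receptor adaptor (CD+DHT against CD+Veh, log2 fold change -0.80 ± 0.48 SE, edgeR p = 0.114; HFHS+Veh against CD+Veh, -0.73 ± 0.51, p = 0.172), and Eif4b, a translation initiation factor (CD+DHT against HFHS+Veh, -0.44 ± 0.25, p = 0.0975). In F1, 37 were measured, and those past 2-fold numbered 3 in CD+DHT against CD+Veh (Prr5, Rhebl1 and Strada; 3.94% of all genes), 0 in HFHS+Veh against CD+Veh (3.35%), 1 in HFHS+DHT against HFHS+Veh (Prr5; 3.74%) and 1 in HFHS+DHT against CD+DHT (Rhebl1; 4.45%). In F3, 35 were measured. In CD+DHT against CD+Veh 2 were at least 2-fold higher and 3 lower, where all genes gave 7.53% and 6.78%, and in HFHS+Veh against CD+Veh 0 were higher and 5 lower, where all genes gave 4.27% and 10.6%.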

How the data were processed

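The 202 libraries were Smart-seq2 libraries of single MII oocytes, without molecular identifiers. The authors deposited raw counts per gene symbol and, for the same libraries, RPKM values; 24582 count lines held 92 ERCC spike-ins and 23995 symbols, with 494 repeated lines summed here. Per the submitters' processing notes, STAR 2.4.2a, Seurat 2.0 and build mm10 were used. The sources used here do not give how reads were assigned to genes, nor the annotation and gene lengths. RPKM values were used as deposited by the authors. Other normalised tables were not used.

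Oocytes under 100000 gene counts or 4000 genes were left out (45 of 202, all by counts). Spike-ins stayed out of totals. The 38 members, the further pathway genes and the marker lists were chosen with earlier results of these data known. No 2 libraries were identical (0 pairs).

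For F2, counts were summed per animal and fitted with edgeR 4.0.16 (quasi-likelihood, TMM, filterByExpr, 3 groups in 1 fit, no covariate) in R 4.3.3, with Benjamini-Hochberg adjustment over all genes tested. The SE is the log2 fold change over the root of F. DESeq2, limma, other filters and leaving out each animal were alternatives. F2 HFHS+DHT named no animal and entered no comparison. For F1 and F3 each group was 1 sample of oocytes: counts were pooled, and members with a mean of at least 5 CPM were called measured. Ratios have exact binomial and levels exact Poisson 95% intervals, which cover counting error only, since PCR copies are not independent molecules. The comparisons of controls between generations were added after seeing the data.

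Named were members with an adjusted p under 0.05 and the 3 smallest p in each direction in F2, and in F1 and F3 members past 2-fold and the 2 largest ratios in each direction. Rictor, Ddit4, Akt1 and Gsk3b across generations were chosen after their values were seen. The F2 fit was tested on simulated counts. Promoters came from RefSeq and gene positions from GENCODE vM21. Python 3.11.15, numpy, pandas, scipy and matplotlib were used.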

Additional observations from a re-analysis of the deposited data

Results flagged for a closer look

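Among the tested members, 99 sets of F2 animals (33 genes in 3 groups) were examined for 1 animal far from the others of its group, and 2 stood out, where chance alone gives about 1 in 20. Prkaa2, the alpha-2 catalytic subunit of AMPK, had 0.297 CPM in CD+DHT animal 8, against 2.61 to 3.57 CPM in the other 4 CD+DHT animals. Rictor had 207 CPM in CD+DHT animal 9, against 302 to 329.7 CPM in the other 4. These 2 animals had the lowest medians of detected genes in their group, 7956 for animal 8 and 7771 for animal 9, against 9182 to 11803 in the others.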

How the results depend on the processing

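No paired analysis was possible because the groups of F2 share no animal numbers. In F1 and in F3 CD+DHT and CD+Veh the numbers name oocytes. F3 HFHS+Veh titles named animals, but the other F3 groups named none, so F3 had no test. In F2 no alternative called a member, and leaving out any 1 animal called 0 genes. DESeq2 called 2, 2 and 1 genes (CD+DHT against CD+Veh, HFHS+Veh against CD+Veh, CD+DHT against HFHS+Veh). Limma on oocyte means of log2(CPM + 1), which shifted the median of all genes to -0.27, -0.13 and -0.14, split members into 6 higher and 27 lower, 15 and 18, and 9 and 24. Eif4ebp1 in CD+DHT against HFHS+Veh ran from -0.18 without CD+DHT animal 7 to 1.14 without animal 8.

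Counts of members past 2-fold moved with several settings. In F1 CD+DHT against CD+Veh (1) they were 4 with means of oocyte CPM, 3 with means of RPKM, 3 at a minimum of 1 CPM and 0 at 20 CPM, and 1 to 2 with 1 oocyte left out. In F1 HFHS+Veh against CD+Veh (2) they were 1 with medians and 1 at 20 CPM, and 1 to 3 with 1 oocyte left out. In F1 HFHS+DHT against HFHS+Veh (1) they were 2 with medians, 2 at 1 CPM and 0 without the oocyte rich in cumulus markers, and 0 to 2. In F1 HFHS+DHT against CD+DHT (0) they were 1 with means of CPM or RPKM, 3 with medians, 1 under a stricter oocyte filter and 5 at 1 CPM, and 0 to 1. In F3 CD+DHT against CD+Veh (5) they were 1 with medians, 8 at 1 CPM and 0 at 20 CPM, and 2 to 5. In F3 HFHS+Veh against CD+Veh (4) they were 8 at 1 CPM and 1 at 20 CPM, and 3 to 6. F2 against F1 controls (2) gave 0 with medians, 1 at 20 CPM, and 1 to 4. F3 against F1 controls (6) gave 10 with means of CPM and 12 at 1 CPM, and 5 to 7. A higher or lower minimum tests fewer or more members by construction; otherwise the cause was not tested.

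In F3 CD+DHT against CD+Veh, Tsc1 turned to 0.37 with means of oocyte CPM and 0.37 with RPKM, Stk11 to 1.16 with means, 0.37 with medians and 1.16 with RPKM, and Insr ran from -0.85 to 2.08 with 1 oocyte left out. In F3 HFHS+Veh against CD+Veh, Insr turned to -0.51 without oocytes of contradictory generation label, an alternative added after seeing the data. Rictor between F3 and F1 controls was between 2.55 and 2.89 under the other settings and between 2.80 and 2.90 with 1 oocyte left out. Irs1, Irs2, Pik3r2, Foxo4 and Rps6kb2 had no count in most oocytes, and whether depth or low level accounts for it was not tested.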
